A study of Sus scrofa with 8 samples.

Results

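MHC class II molecules and the invariant chain were followed in pig liver over 7 genes, SLA-DRA, SLA-DRB1, SLA-DQA1, SLA-DQB1, SLA-DMA, SLA-DMB and CD74. Every probe set whose array annotation carries exactly one of these symbols was taken, which gave 10 of the 24123 probe sets on the array (7 of the 6765 genes with a probe set of 1 symbol): 3 for SLA-DRB1, 2 for SLA-DMA and 1 for each other gene. The Affymetrix porcine array was used to measure transcripts in the livers of 4 Korean native pigs (KNP), an indigenous breed, at 7 months of age, and of 4 Yorkshire pigs (YS), a commercial breed, at 6 months. RNA came from the tip of the largest lobe, each animal gave 1 array, and the labels state that the pigs were raised alike. No treatment or genetic change is given, and a difference of breed cannot be told apart from the difference in age.

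Class II molecules carry peptides from proteins taken up by the cell to the surface, where CD4 T cells read them. Each is a pair of an alpha and a beta chain, and CD74, the invariant chain, blocks the peptide groove until the pair reaches the compartment in which DM, itself a class II-like pair, helps to load a peptide. Dendritic cells, macrophages and B cells carry them all the time, in liver mainly the Kupffer cells and other immune cells of the sinusoids, while most hepatocytes at rest show little. The DR and DQ beta chains and the DQ alpha chain are among the most variable proteins between individuals. In the Sscrofa11.1 gene table the 6 class II genes lie on 1 chromosome in the order SLA-DRA, SLA-DRB1, SLA-DQA1, SLA-DQB1, SLA-DMB and SLA-DMA, and CD74 lies on another chromosome.

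The values are intensities on a linear scale, scaled by the authors so that each array has the same trimmed mean. Array medians ran from 152.6 to 170.0 in KNP and from 153.9 to 180 in YS. The tissue label was borne out by hepatocyte transcripts: ALB, the albumin gene, averaged 54702 ± 3867 in KNP livers and 88262 ± 5690 in YS livers (SD, n = 4 per breed). The 3' over 5' signal of the actin controls, which depends on RNA length, was 2.68 to 6.45 on KNP arrays and 8.39 to 11.8 on YS arrays, and spiked hybridization controls had geometric means of 3433 to 4959 on KNP arrays and 6876 to 8955 on YS arrays, so both measures separated the breeds without overlap (exact permutation p = 0.0286 for each, two-sided, n = 4 per breed, the smallest p this design allows). The part of RNA length or of the spiked controls in the results was not tested. With 4 arrays per breed, their number limits the precision of every value.

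All 7 genes had at least 1 probe set bright enough to be tested, 8 of 10 in all. None of these 8 passed an adjusted p of 0.05 between the breeds (probe sets that share SLA-DRB1 with a second symbol are given further on, and 2 of those passed), against 149 of 14399 probe sets over the array (1.03%; limma with Benjamini-Hochberg adjustment, which serves for all adjusted p-values here). The difference, KNP minus YS on the log2(intensity + 16) scale, was positive in 7 of the 8 and negative in 1, and 48.9% of all probe sets tested had a positive difference. The median was 0.40 for the 8, and −0.0086 for all probe sets tested. At an unadjusted p under 0.05 there were 3 of the 8, all higher in KNP, against 7.07% of all probe sets that were higher at this level. In 2 of the 8, the brightest SLA-DRB1 probe set and CD74, every KNP animal lay above every YS animal, where 4.01% of all probe sets tested did so. In bulk liver, fewer cells of a type and less RNA per cell cannot be told apart.

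**Figure D1:**
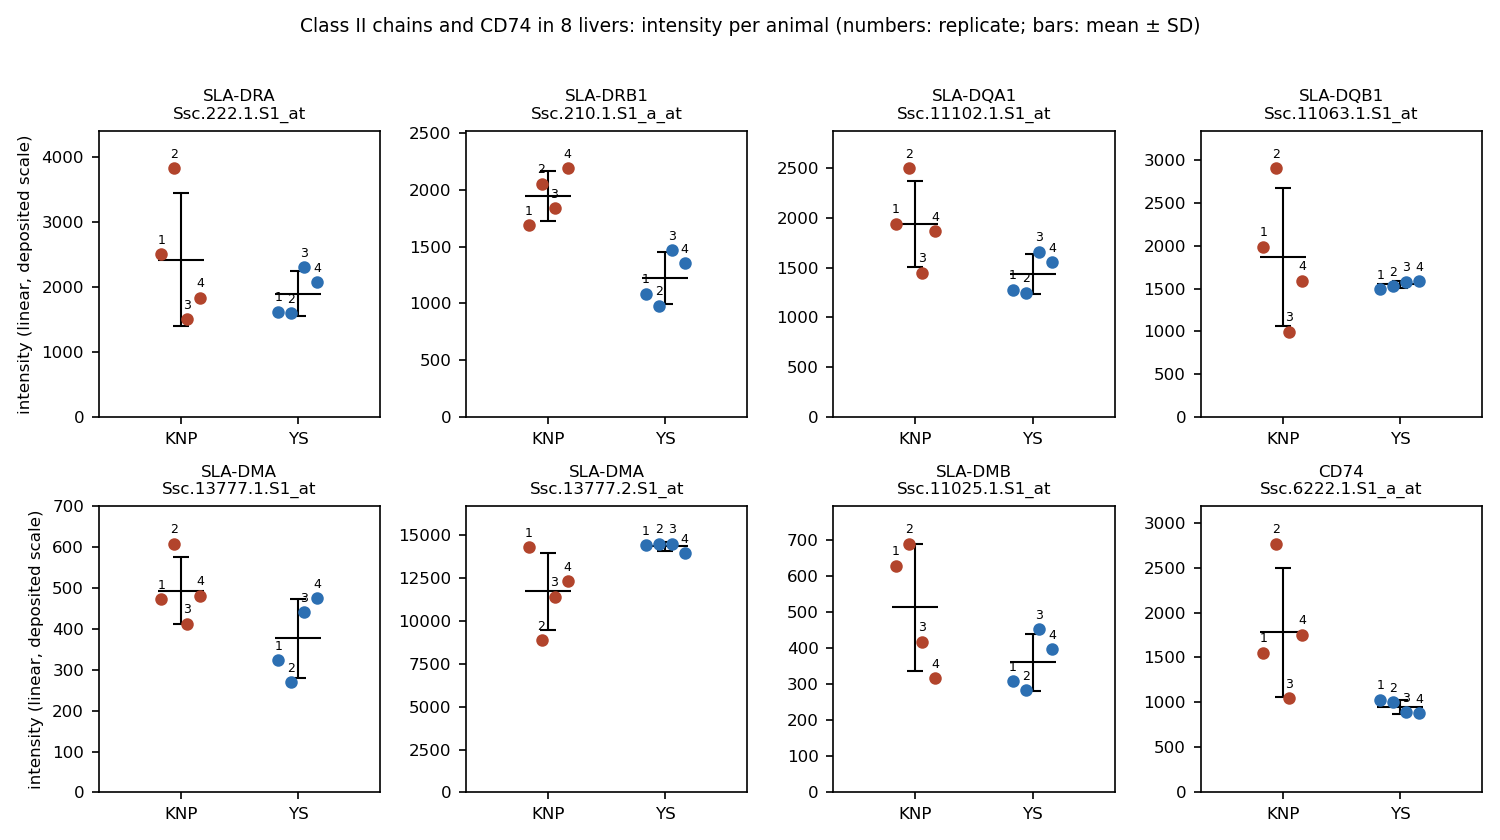
Intensity (linear, deposited scale) of the 8 tested probe sets in each animal, KNP left and YS right. Points are animals with their replicate number, and bars give the mean ± SD of 4. SLA-DRB1 (lowest KNP animal 1690, highest YS animal 1468) and CD74 (1049 and 1030) do not overlap, while SLA-DQB1 spans 997 to 2908 in KNP and 1497 to 1587 in YS.

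The DR pair is one of the main presenting molecules of class II. SLA-DRA, the nearly invariant alpha chain, had intensities of 2507, 3825, 1507 and 1835 in KNP replicates 1 to 4, against 1617, 1600, 2307 and 2068 in YS replicates 1 to 4. KNP replicate 2 was the highest of the 8 animals and KNP replicate 3 the lowest, so the breeds overlapped fully. Its log2 difference was 0.27 (SE 0.27, 95% interval −0.31 to 0.86, adjusted p = 0.668). The difference was 0.024 without KNP replicate 2 and 0.47 without KNP replicate 3.

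SLA-DRB1, the variable beta chain of DR, gave 1690, 2053, 1839 and 2189 in KNP and 1086, 980, 1468 and 1353 in YS with its brightest probe set. All 4 KNP animals lay above all 4 YS animals, and the spread was alike in both, 1943 ± 221 in KNP and 1222 ± 227 in YS (SD, n = 4 each). The log2 difference was 0.67, or 1.60-fold (SE 0.17, 95% interval 0.30 to 1.05), with an adjusted p of 0.100, the smallest of the 8 and rank 335 of 14399 by p. Leaving out any 1 animal kept the difference between 0.58 and 0.77.

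The other SLA-DRB1 probe sets were too dim to be tested. The first had 92.5, 41.8, 99.3 and 93.0 in KNP, against 81.9, 19.4, 164 and 71.9 in YS, each below the median of its array. The second lay between 2.45 and 32.3 in KNP and between 2.27 and 32.1 in YS, far below the array medians. Fitted with no filter, their log2 differences were 0.13 (SE 0.47) and −0.036 (SE 0.41), and no second bright probe set of this symbol alone was there to set beside the first.

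A further 3 probe sets are annotated to SLA-DRB1 together with LOC106504372 and are left out of the 10, since 2 symbols name no single gene; they were looked at after the values were seen. The first of them gave 532, 756, 356 and 681 in KNP, against 252, 140, 82.9 and 70.3 in YS, a log2 difference of 2.07 (SE 0.36, adjusted p = 0.0339). The second ran the other way, at 109, 105, 138 and 127 in KNP and 220, 435, 674 and 554 in YS, a difference of −1.75 (SE 0.30, adjusted p = 0.0339). Both separated the breeds without overlap, in opposite directions, and the KNP values of the second lay below every array median. Their names end in x, the mark Affymetrix gives to probe sets in which some probes also match other sequences. After quantile normalization the differences were 2.11 and −1.70, with adjusted p of 0.0721 and 0.0660. The third stayed between 1.36 and 3.93 in KNP and between 6.43 and 19.0 in YS and was not tested. Animals of different breeds may carry different SLA-DRB1 alleles; genotypes and single-probe signals were not analysed here, so a change in transcript amount and a change in how an allele matches the probes cannot be told apart for the class II probe sets.

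**Figure D2:**
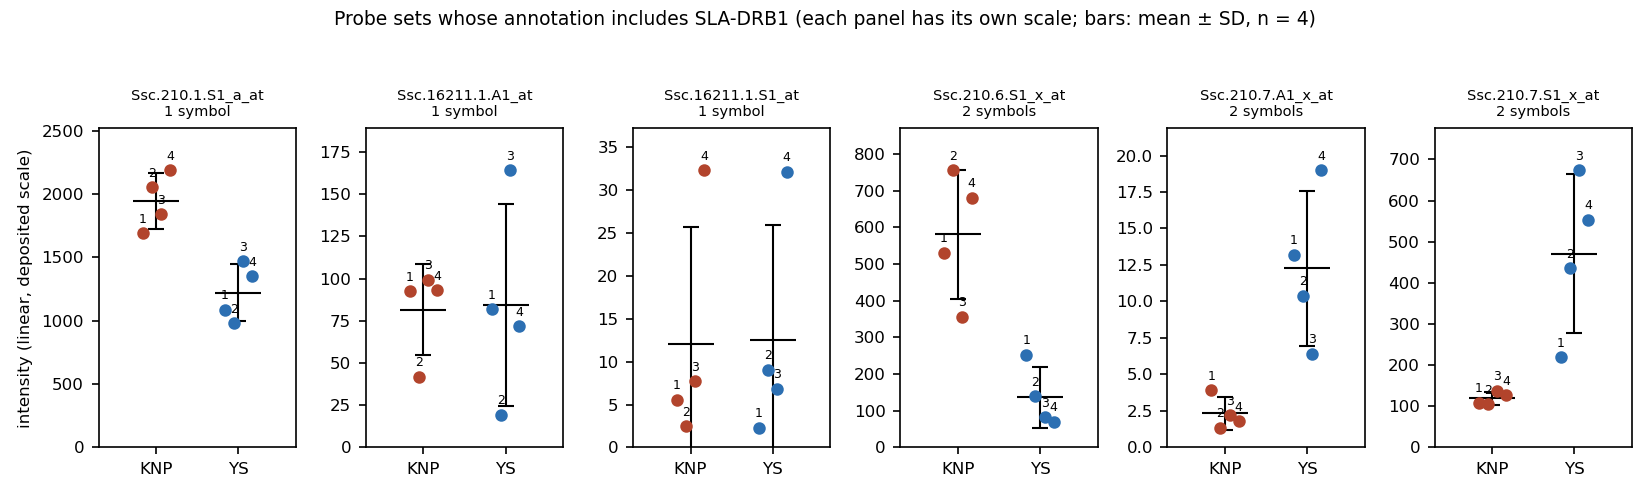
Intensity (linear, deposited scale, a separate axis per panel) of the 6 probe sets annotated to SLA-DRB1, alone (3 panels on the left) or with LOC106504372 (3 on the right), KNP left and YS right in each. Points are animals with replicate numbers, and bars give mean ± SD (n = 4). The fourth panel is at 581 ± 177 in KNP and 136 ± 83.0 in YS, and the sixth at 120 ± 15.6 in KNP and 471 ± 194 in YS.

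The DQ pair presents peptides beside DR. SLA-DQA1, its alpha chain, gave 1939, 2496, 1447 and 1866 in KNP, against 1278, 1246, 1657 and 1552 in YS. KNP replicate 3 lay among the YS animals and the other 3 KNP animals above all of them. The log2 difference was 0.41 (SE 0.19, 95% interval 0.0022 to 0.83, adjusted p = 0.327).

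SLA-DQB1, its beta chain, gave 1993, 2908, 997 and 1591 in KNP and 1497, 1532, 1583 and 1587 in YS. The KNP animals lay on both sides of the YS animals, which were nearly equal to each other, with a coefficient of variation of 42.9% in KNP and 2.79% in YS. The log2 difference was 0.17 (SE 0.27, 95% interval −0.42 to 0.76, adjusted p = 0.810), and it was −0.077 without KNP replicate 2 and 0.43 without KNP replicate 3. A KNP level 1.5-fold that of YS lies within the interval of SLA-DQB1 and of SLA-DRA.

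DM is not a presenting molecule but the editor that exchanges the CD74 fragment for a peptide. SLA-DMA, its alpha chain, had 2 probe sets that went opposite ways and differed widely in intensity. Whether both report the SLA-DMA transcript was not tested. The dimmer one gave 474, 609, 413 and 481 in KNP, against 324, 270, 441 and 475 in YS, a log2 difference of 0.40 (SE 0.21, adjusted p = 0.414). The brighter one gave 14326, 8879, 11423 and 12317 in KNP and 14429, 14517, 14511 and 13976 in YS, a difference of −0.31 (SE 0.15, adjusted p = 0.356). Without KNP replicate 2 the brighter one's difference was −0.18, and without YS replicate 2 the dimmer one's was 0.25. KNP replicate 2 was the highest of the 8 animals in the dimmer one and the lowest in the brighter one. Bright probe sets as a whole were lower in KNP on this scale: the 193 probe sets within 0.5 of the brighter one's mean log2 intensity had a median difference of −0.24, and its own difference was −0.085 after quantile normalization. The mean of both probe sets differed by 0.042 between the breeds (adjusted p = 0.915).

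SLA-DMB, the beta chain of DM, gave 629, 690, 418 and 317 in KNP, against 309, 283, 452 and 398 in YS. KNP replicates 1 and 2 lay above every YS animal, and replicates 3 and 4 within the YS range. The log2 difference was 0.45 (SE 0.26, 95% interval −0.12 to 1.02, adjusted p = 0.445). It moved between 0.29, without KNP replicate 2, and 0.65, without KNP replicate 4.

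CD74, the invariant chain, gave 1554, 2765, 1049 and 1753 in KNP, against 1030, 1000, 892 and 880 in YS. Every KNP animal was above every YS animal, though KNP replicate 3 was only just so. The mean was 1780 ± 720 in KNP and 951 ± 75.4 in YS (SD, n = 4 each). The log2 difference was 0.81, or 1.76-fold (SE 0.25, 95% interval 0.26 to 1.36), with an adjusted p of 0.156, and it was the largest difference of the 8. Without KNP replicate 2 it was 0.57 (adjusted p = 0.199) and without KNP replicate 3 it was 1.04 (adjusted p = 0.0619).

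**Figure D3:**
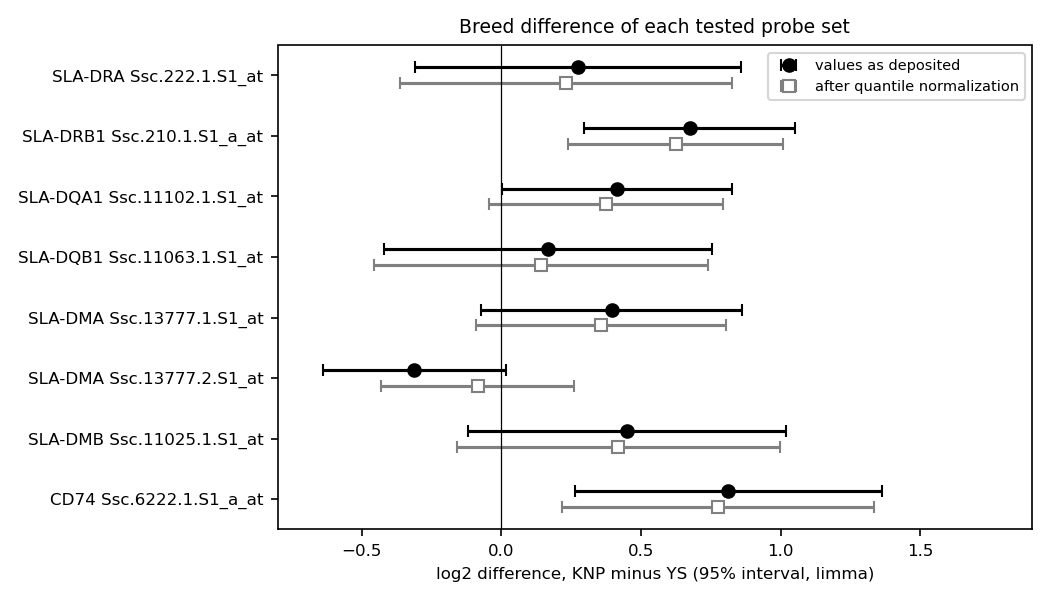
Log2 difference, KNP minus YS, of each tested probe set with its 95% interval from limma, as deposited (filled circles) and after quantile normalization (open squares). The intervals of SLA-DRB1 and CD74 lie above 0 under both scalings, that of SLA-DQA1 only as deposited, and only the bright SLA-DMA probe set moves by more than 0.1 between the scalings, to −0.085.

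The SD of the intensity was larger in KNP for 6 of the 8 probe sets, against 59.0% of all probe sets tested, so the array as a whole leaned the same way. KNP replicate 2 was the highest of the 8 animals in 6 of the 8, where it was the highest for 15.2% of all probe sets tested, and KNP replicate 3 was the lowest KNP animal in 5 of the 8, against 26.0%. To put the genes on 1 scale, the log2 values of the brightest tested probe set of each gene were centred and averaged per animal. This class II level was 0.28, 0.57, −0.22 and 0.072 in KNP replicates 1 to 4 and −0.27, −0.31, −0.021 and −0.11 in YS replicates 1 to 4, so KNP replicate 3 lay inside the YS range. The genes did not all follow the level they enter: r with it over the 8 animals was 0.85 to 0.98 for SLA-DRA, SLA-DQA1, SLA-DQB1, SLA-DMB and CD74, 0.69 for SLA-DRB1 and −0.65 for the bright SLA-DMA probe set, a description in which each gene is part of the level. KNP replicate 4 was the highest animal in SLA-DRB1 and the lowest KNP animal in SLA-DMB, and KNP replicate 2 was the lowest animal in the bright SLA-DMA probe set. KNP replicate 2 also had the lowest 3' over 5' actin signal of all arrays, 2.68, and its part in these values was not tested.

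**Figure D4:**
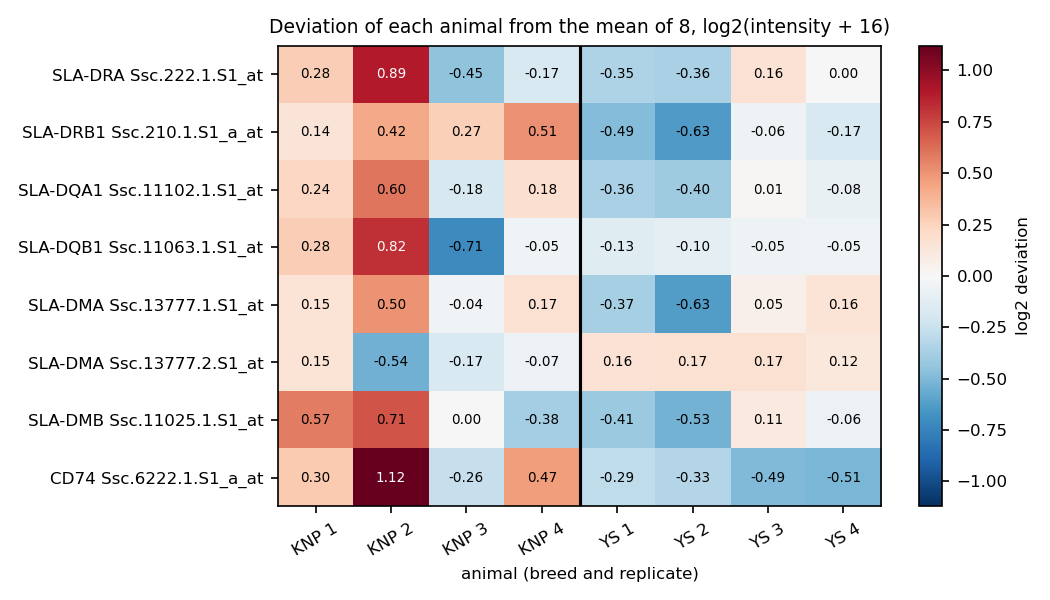
Deviation of each animal from the mean of the 8 animals, in log2(intensity + 16), for the 8 tested probe sets (rows) in 4 KNP and 4 YS animals (columns). Red is above and blue below the mean. KNP replicate 2 is above the mean in 7 rows, by up to 1.12 in CD74, and at −0.54 in the bright SLA-DMA probe set.

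The 6 genes most like this class II level over the 8 animals came from other pathways. Among 5416 other genes the highest Pearson r belonged to LDHD, a D-lactate dehydrogenase (0.98), LRPAP1, a chaperone of lipoprotein receptors (0.97), DCTN2, a dynactin subunit, MYH9, a non-muscle myosin heavy chain, and YPEL3 (0.95 each), and TANGO2 (0.93). With the mean of each breed removed r lay between 0.91 and 0.97. LDHD gave 1362 ± 600 in KNP and 885 ± 102 in YS, and the smallest adjusted p of the 6 was 0.267. These are the highest of many correlations over only 8 animals and are given as a description.

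Genes that control or serve class II presentation, from a list of 30 of which 19 had a probe set and 16 were tested, did not pass the test in either direction, with 7 higher and 9 lower in mean log2 intensity and a median difference of −0.071. CIITA, the master activator of class II genes, gave 148 ± 91.4 in KNP and 165 ± 93.4 in YS (log2 difference −0.17, SE 0.47, adjusted p = 0.902), near the array medians. CTSB, a lysosomal cathepsin, showed 0.072 and LGMN, the asparagine endopeptidase that cuts antigens, −0.50 (SE 0.18, adjusted p = 0.223). LGMN was bright, at 14606 ± 3486 in KNP and 20386 ± 3024 in YS. Probe sets about as bright as the bright SLA-DMA probe set had a median difference of −0.24, and the part of this in LGMN was not tested. CTSS, the protease that trims CD74 in antigen-presenting cells, showed 0.18 (SE 0.17, adjusted p = 0.672), at 10599 ± 169 in KNP and 9606 ± 2386 in YS. At an unadjusted p under 0.05 there were 3 of the 16, against 15.1% of all probe sets tested, and all 3 kept their sign after quantile normalization. LGMN was lower in KNP. CD82, a tetraspanin (0.55, SE 0.15, adjusted p = 0.121, on the brighter of its 2 tested probe sets), and CTSD, a lysosomal aspartic protease (0.33, SE 0.13, adjusted p = 0.279), were both higher in KNP with no overlap. Of all probe sets tested, 4.01% were higher in KNP with no overlap. RFXANK, also on the list, separated the breeds the other way, at 434 to 477 in KNP and 495 to 532 in YS (−0.17, SE 0.14, adjusted p = 0.617). The share of all probe sets that were lower in KNP with no overlap is not given here, so nothing is read from this separation. CIITA and CTSS were named for their role, CD82 and CTSD for their p and RFXANK for its lack of overlap, after their values were seen. SLA-DOA, the alpha chain of DO, which restrains DM, was too dim to be tested, at 24.8 to 127 in KNP and 21.0 to 133 in YS.

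Interferon gamma, which induces class II through CIITA, has its own list, in which 12 of 22 genes were tested and none passed. An unadjusted p under 0.05 was seen for 4 of the 12, all with a positive difference, against 7.07% of all probe sets that were higher at this level. They were IFNGR1, a receptor chain (0.54, SE 0.21), JAK2, a kinase of the receptor (0.71, SE 0.22, on the brighter of its 2 tested probe sets), IRF8, a transcription factor (0.50, SE 0.21), and ICAM1, an adhesion molecule (0.69, SE 0.23), named after their values were seen. The median difference of the list was 0.10, with JAK1, the other kinase, at 0.17 (SE 0.16) and PSME2, a proteasome activator, at −0.047 (SE 0.17). In the class I list 11 of 18 genes were tested and none passed, with a median of 0.20. An unadjusted p under 0.05 was seen for 4 of the 11, 2 higher and 2 lower, against 15.1% of all probe sets tested. PDIA3 (0.90, SE 0.19, adjusted p = 0.0590, on the brightest of its 3 tested probe sets) and SLA-6 (0.75, SE 0.26, adjusted p = 0.197) were higher in KNP with no overlap, as were 4.01% of all probe sets tested. SLA-8 (−0.67, SE 0.21, adjusted p = 0.163) and B2M were lower. PDIA3, SLA-6 and SLA-8 were named after their values were seen. SLA-2, a class I heavy chain, showed 0.20 (SE 0.22) and B2M, the light chain of class I, −0.56 (SE 0.16, adjusted p = 0.130) on the brightest of its probe sets, and −0.059 after quantile normalization.

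Markers of the immune cells that carry class II had positive medians. Of 21 Kupffer cell and macrophage markers 13 had a probe set and 11 were tested, 9 with a higher and 2 with a lower mean log2 intensity in KNP and a median difference of 0.46. Of these FCER1G, the signalling chain of Fc receptors, rose to 556 ± 80.0 in KNP, against 283 ± 39.7 in YS (log2 difference 0.93, SE 0.17, adjusted p = 0.0384; 0.91 and adjusted p = 0.0718 after quantile normalization). FCER1G was the only 1 of the 11 to pass, against 1.03% of all probe sets tested. The 2 lower were CD5L, at −0.055 (SE 0.14), and MRC1, at −0.092 (SE 0.28), named for their direction after their values were seen. The summed intensity of the 13 ran from 29542 to 35910 in KNP and from 21983 to 31498 in YS, overlapping, and MARCO and SIGLEC1 were too dim to be tested. Of 12 markers shared by leukocytes 8 were tested, 7 with a higher mean log2 intensity (PTPRC by only 0.0044), with a median of 0.39 and sums of 5174 to 6378 in KNP and 2749 to 5168 in YS. None passed. An unadjusted p under 0.05 was seen for 4 of the 8, all higher, against 7.07% of all probe sets that were higher at this level. LAPTM5, a lysosomal membrane protein of blood cells, was at 1.16 (SE 0.24, adjusted p = 0.0501) and CD53, a tetraspanin of leukocytes, at 0.18 (SE 0.23). The part of these cells in the class II values was not tested.

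For dendritic cells 2 of 14 markers were tested, the chemokine receptor XCR1 at −0.039 and the protease inhibitor CST3 at 0.30, and for B cells 1 of 14, JCHAIN, which joins antibody units, at 0.85 (SE 0.30, adjusted p = 0.214), so neither cell type could be followed. Sums of the markers with a probe set were 4418 to 6757 in KNP and 3939 to 4679 in YS for dendritic cells (3 genes), and 1869 to 3323 in KNP and 960 to 2728 in YS for B cells (2 genes). Of 21 T and NK cell markers 8 were tested and none passed, with a median of 0.46. An unadjusted p under 0.05 was seen for 2 of them, both higher, against 7.07% of all probe sets that were higher at this level. CD247, a chain of the T cell receptor complex, showed 1.44 (SE 0.42) on the brighter of its 2 tested probe sets, and CD8A showed 0.51 (SE 0.35). The sum over 11 genes was 1764 to 2920 in KNP and 1025 to 2208 in YS. Endothelial markers, of which 9 of 16 were tested and none passed, had 0 with an unadjusted p under 0.05, against 15.1% of all probe sets tested. They had a median of 0.16, with PECAM1 at 0.16 and CDH5 at 0.21, and sums of 4317 to 5672 in KNP and 4031 to 5889 in YS. Hepatocyte markers went the other way: all 12 had lower means in KNP and 10 of them passed the test, against 1.03% of all probe sets tested. Among them ALB fell by 0.69. The median was −0.60, with sums of 437445 to 509059 in KNP and 730331 to 756723 in YS. But after quantile normalization 0 of the 12 were called, the median was −0.044, ALB showed −0.063 and 4 of 12 turned positive. Under that normalization the medians were 0.37 for class II chains and CD74, 0.45 for macrophages, 0.36 for leukocytes and 0.51 for T and NK cells. They were 0.19 for class I, 0.12 for dendritic cells, 0.098 for endothelium, 0.083 for interferon gamma and −0.039 for the class II pathway. The 1 B cell gene tested was at 0.81.

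**Figure D5:**
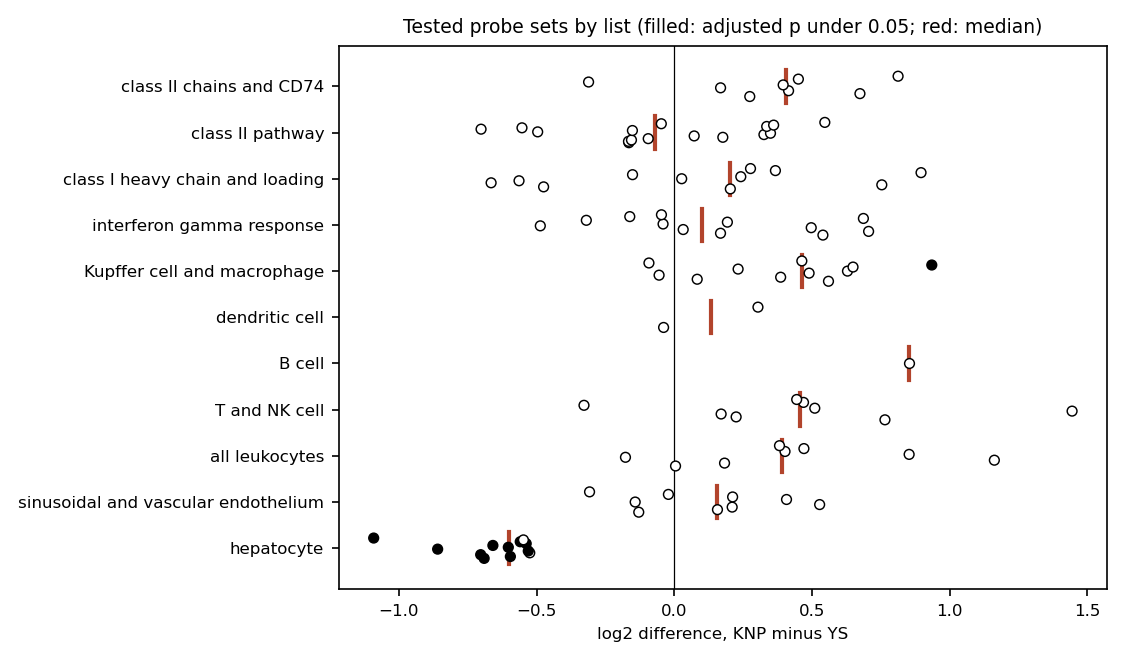
Log2 difference, KNP minus YS, of the 8 tested class II and CD74 probe sets (top) and of the brightest tested probe set of each gene in 10 lists. Filled points passed an adjusted p of 0.05, and red bars are medians. The medians are 0.40 for class II chains and CD74, 0.46 for macrophages, 0.46 for T and NK cells, 0.39 for leukocytes, 0.16 for endothelium, −0.071 for the class II pathway and −0.60 for hepatocytes (−0.044 after quantile normalization).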

How the data were processed

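Per the submitters' processing notes, GCOS 1.3 was used. The deposited table holds 1 intensity per probe set and array on a linear scale; the authors' scaling gives each array the same trimmed mean. The signal algorithm, background step and detection calls are, in the sources used here, not given. Probe sets were named from the platform annotation, where 10099 have 1 symbol, 198 several and 13826 none; all 7 entrez IDs were found in the Sscrofa11.1 gene table.

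Of 24123 probe sets, 124 controls and the lower 40% by mean were left out, and 14399 were tested on log2(intensity + 16) with limma 3.58.1 in R 4.3.3 (lmFit, eBayes with an intensity trend, two-sided, breed as the only term, Benjamini-Hochberg over the 14399; threshold 0.05). Intervals are 95% and not adjusted. Differences are KNP minus YS. The fit was tested on simulated data. Age is tied to breed, and the dates of hybridization were not used here. A gene of a list is counted by its brightest tested probe set, and its other probe sets are not given.

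The genes, lists, tests and alternatives were chosen with earlier results of these data known. Named from each list are genes past the threshold, at most 6, or else the 2 brightest, and the 6 genes with the highest Pearson r with the class II level; others are marked where named. Replicate numbers name different animals, and the deviations of same-numbered animals correlated between −0.020 and 0.051, so the animals were not paired. Alternatives were other pseudocounts, filters, normalizations, variance models and thresholds, a replicate block, the mean of a gene's probe sets and each animal left out. Subtraction of the median of probe sets of like brightness was chosen after seeing the data.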

Additional observations from a re-analysis of the deposited data

Results flagged for a closer look

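In 20 groups of 4 animals, 1 per probe set and breed, 2 held an animal far from its others; chance gives about 1 in 20. KNP replicate 2 lay at 41.8 in the first of the dim SLA-DRB1 probe sets, and the other KNP animals at 92.5 to 99.3. YS replicate 4 lay at 13976 in the bright SLA-DMA probe set, and the other YS animals at 14429 to 14517, a small gap in a group with a coefficient of variation of 1.80%.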

How the results depend on the processing

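None of the 8 class II and CD74 probe sets of 1 symbol passed under any of the 19 alternatives run, and their median difference stayed between 0.29 and 0.50 in the 18 that recompute it. Their smallest adjusted p was 0.0580 (SLA-DRB1, median centring); that of CD74 was 0.0619 (without KNP replicate 3). SLA-DQB1 turned to −0.077 without KNP replicate 2 and was 0.43 without KNP replicate 3. The bright SLA-DMA probe set turned to 0.042 when the 2 SLA-DMA probe sets were averaged, since the dimmer one's 0.40 is larger in size than its −0.31. Over the array, calls numbered 13 after quantile normalization, 14 after cyclic loess, 95 after median centring, 35 with no filter, 13 with no intensity trend and 5 at an adjusted p under 0.01, against 149; the cause was not tested. With a replicate block there were 8, 0 of them among those of 1 class II or CD74 symbol. Leaving out 1 animal gave 8 to 119, with 13, 23, 8 and 12 without YS replicates 1 to 4 and 53 and 78 without KNP replicates 1 and 3. The 2 tested probe sets shared by SLA-DRB1 and LOC106504372 were called in 7 of 18 and 7 of 17 alternatives and kept their direction in all of these. Signals under the array median, and 4 arrays per breed, limit what could be seen.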
